A study of Mus musculus with 1 sample.

Results

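Transcripts of 40 oocyte and germline genes were examined in the surface epithelium of the mouse ovary, on 1 Affymetrix array. The genes were taken as a fixed list and matched to every probe set annotated with that gene symbol alone. This gave 36 measured members with 41 probe sets, out of 18193 genes and 34945 probe sets named in the same way. The remaining 4 members, Npm2, H1foo, Oog1 and Nanos3, had no such probe set and were not analysed here under those names. The RNA was total RNA of ovarian surface epithelia from wild type mice aged 3 months. The labels give no transgene, Cre driver, strain or treatment, and do not say how many animals gave the cells. The series compares 3 genotypes, of which this wild type sample was the one analysed here, so no value below has a replicate error and no test between groups was possible.

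Oocytes express a set of genes that somatic cells normally keep silent. The egg coat is built from zona pellucida glycoproteins, growth factors secreted by the oocyte act on the surrounding granulosa cells, and a small network of transcription factors switches both on in early follicles. Maternal-effect genes store the products that the embryo uses before its own genome is active, while germ cell RNA-binding proteins and meiosis genes are used by germ cells of both sexes. The surface epithelium covers the ovary as a single cell layer, with follicles lying in the cortex beneath it.

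An intensity was called above background when it exceeded 46.5, or 5.54 on the log2 scale. This limit is the 95th percentile of a background set: 126 probe sets for keratin-associated proteins and for receptors of smell, pheromones and bitter taste. The background set had a median intensity of 13 and a highest value of 125. Markers listed for the surface epithelium were above the limit in 10 of 10 cases, against 62.8% of all named genes. The brightest probe set of each gene had intensities from 2047 to 20836. Like the other lists, this one was chosen with earlier results of these data known, so the count is no independent check of the sample. Krt8, a keratin of simple epithelia, reached 4573, Krt18, its partner keratin, 3377, and Krt19 4897. Markers of granulosa cells, the somatic cells that surround the oocyte, were above it in 5 of 9 measured cases, or 55.6%, from 23 to 1438, against 62.8% of all named genes. The granulosa count was 8 of 9 with the 90th percentile as limit and 3 of 9 by each gene's lowest probe set. Inha, the inhibin alpha subunit, had an intensity of 1438, Amh, anti-Müllerian hormone, 58, and Fshr, the follicle-stimulating hormone receptor, 34. No gene had an intensity of 0, and the lowest level of any named gene was 7. In a bulk sample such as this one, fewer cells of a type and less RNA per cell cannot be told apart.

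Only 2 of the 36 measured members were above background by this limit. They were Ooep, a subunit of the subcortical maternal complex of the egg, and Ybx2, a protein that binds stored messenger RNA in oocytes and spermatids. The share of members above the limit was 5.56%, against 62.8% of all named genes. Probe set number bears on this share, since a gene with more probe sets has more chances to pass. A single probe set measured 32 members, of which 2 passed the limit, while 47.3% of all named genes with a single probe set did. None of the 3 members with 2 probe sets was, against 71.8% of such genes, nor was Bmp15 with its 3, against 82.9%. The share of member probe sets above the limit, 2 of 41 or 4.88%, was close to the 5.56% that the definition of the limit leaves among background probe sets, against 55.1% of all named probe sets. At some lower limits the shares lay further apart. With a limit of 18.52, 50% of members passed by their brightest probe set, against 23.8% of background probe sets and 81.2% of all named genes. The median level was 18.5 for the members and 133 for all named genes. Of the members, 10 were at or below the background median of 13, a further 24 lay between it and the limit, and 2 lay above the limit.

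**Figure D1:**
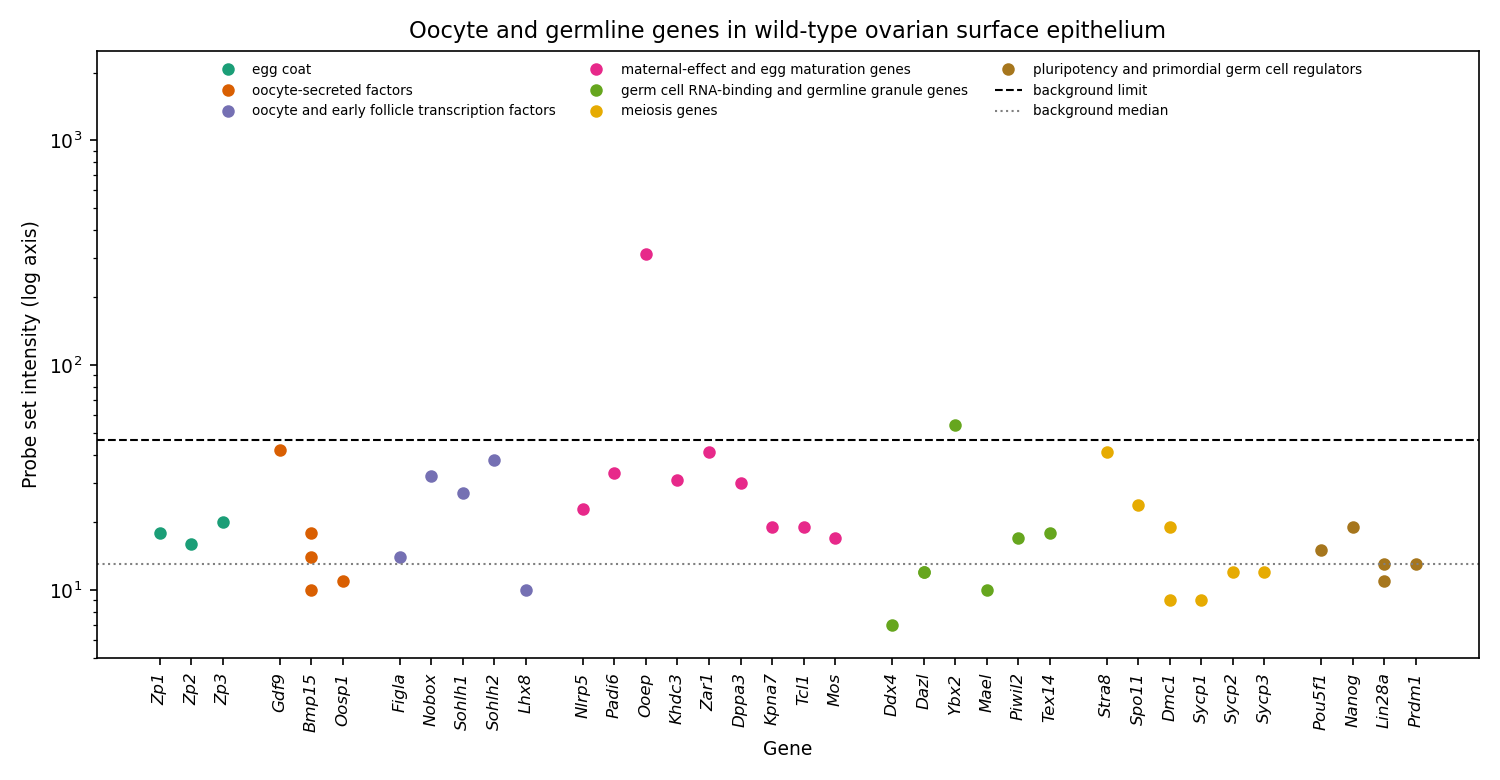
Intensity of each probe set (vertical log axis) of the 36 measured germline genes, coloured by role. The dashed line is the background limit of 46.5 and the dotted line the background median of 13; Ooep at 312 stands clear of the limit and Ybx2 at 54 just above it, with Gdf9 at 42 the nearest below.

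The upstream sequences of Ooep and Ybx2 are shown with those of Zp3, a zona pellucida gene below the limit, and Ddx4, the member with the lowest level. Each is the 250 bases before the gene's start in RefSeq, build GRCm38.p6, written 5′ to 3′. Capitals mark the E-box pattern CANNTG, which basic helix-loop-helix factors such as Figla and the Sohlh proteins bind, and the homeobox pattern TAATTG, which Nobox binds, on either strand. The Ooep window is chr9:78378589-78378838 on the minus strand, the Ybx2 window chr11:69935649-69935898 on the plus strand, the Zp3 window chr5:135979855-135980104 on the plus strand and the Ddx4 window chr13:112652311-112652560 on the minus strand. Ybx2 has another annotated start downstream, whose window has no CANNTG.
Ooep: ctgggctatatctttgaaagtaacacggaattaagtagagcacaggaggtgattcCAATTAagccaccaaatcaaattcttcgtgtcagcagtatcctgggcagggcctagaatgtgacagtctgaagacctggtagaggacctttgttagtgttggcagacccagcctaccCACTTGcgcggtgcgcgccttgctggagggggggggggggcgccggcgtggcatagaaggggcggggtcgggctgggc
Ybx2: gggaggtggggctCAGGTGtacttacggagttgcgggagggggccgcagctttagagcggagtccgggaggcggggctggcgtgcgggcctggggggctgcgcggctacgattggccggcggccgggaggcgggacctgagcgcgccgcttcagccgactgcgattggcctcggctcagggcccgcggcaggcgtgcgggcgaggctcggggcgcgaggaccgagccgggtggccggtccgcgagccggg
Zp3: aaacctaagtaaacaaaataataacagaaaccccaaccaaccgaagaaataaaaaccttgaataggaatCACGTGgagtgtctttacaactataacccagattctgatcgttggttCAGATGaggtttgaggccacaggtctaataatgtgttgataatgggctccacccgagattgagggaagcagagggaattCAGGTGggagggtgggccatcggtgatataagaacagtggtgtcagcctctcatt
Ddx4: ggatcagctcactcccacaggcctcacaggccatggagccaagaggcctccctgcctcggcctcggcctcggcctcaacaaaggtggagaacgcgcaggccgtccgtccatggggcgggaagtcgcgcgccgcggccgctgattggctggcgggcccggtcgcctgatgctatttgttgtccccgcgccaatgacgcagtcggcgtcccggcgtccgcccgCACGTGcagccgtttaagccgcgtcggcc
The Ooep window held 1 CANNTG and 1 TAATTG, the Ybx2 window 1 CANNTG, the Zp3 window 3 and the Ddx4 window 1. A match is a description of the letters and was not tested as a binding site.

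The egg coat genes were all near the background median. Zp1, Zp2 and Zp3, which encode glycoproteins of the zona pellucida, had 1 probe set each, with intensities of 18, 16 and 20. Of the 126 background probe sets, 34, 52 and 27 were as high or higher. No zona gene therefore stood out from probe sets for genes with no expected role in the ovary.

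Oocyte-secreted factors were below the limit in 3 of 3 cases, while 62.8% of all named genes were above it. Gdf9, a growth factor of the TGF-beta family that the oocyte sends to granulosa cells, had an intensity of 42, the highest of all members below the limit, 0.15 under it on the log2 scale. As many as 8 background probe sets were at that intensity or higher. Bmp15, its close relative, had 3 probe sets at 10, 14 and 18, all under the limit. Oosp1, another protein secreted by the oocyte, had 11.

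The transcription factors of oocytes and early follicles were also below the limit, in 5 of 5 cases. Of all named genes 62.8% were above it. Figla, the helix-loop-helix factor that drives the zona genes, had an intensity of 14. Nobox, an oocyte homeobox factor, had 32, and Lhx8, a LIM homeobox factor of early oocytes, had 10. Sohlh1 and Sohlh2, helix-loop-helix factors of early follicles and spermatogonia, had 27 and 38. Figla and Lhx8 were at the level of typical background probe sets, while Nobox, Sohlh1 and Sohlh2 were in its upper range, with 10, 12 and 8 background probe sets as high or higher.

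Among maternal-effect and egg maturation genes, 1 of 9 measured members was above background, against 62.8% of all named genes. Ooep had an intensity of 312, which is 6.71 times the limit and 2.75 above it on the log2 scale. None of the 126 background probe sets was as high, and 72.9% of all named probe sets were lower. Ooep was measured by this probe set alone, so the value was not checked by another of the gene. Of the proteins that join Ooep in the subcortical maternal complex, Nlrp5 had an intensity of 23 and Khdc3 had 31, both below the limit. Padi6, an enzyme-family protein of the egg's cytoplasmic lattices, had 33. The high value of Ooep was thus not shared by these 3 members.

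The other members of that group lay between 17 and 41. Zar1, which binds maternal messenger RNA, had an intensity of 41, and Dppa3, which protects methylation of the maternal genome after fertilisation, had 30. Kpna7, an oocyte importin, and Tcl1, a co-activator of AKT kinases, had 19 each. Mos, the kinase that holds the egg in the second meiotic metaphase, had 17. H1foo, the oocyte linker histone, is annotated on the array under its current symbol H1f8, where it had 31 and was below the limit too. Oog1 is listed only on 2 probe sets shared with other genes, from which no value was taken.

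Germ cell RNA-binding and granule genes were above the limit in 1 of 6 measured cases, against 62.8% of all named genes. Ybx2 had an intensity of 54, 0.22 above the limit on the log2 scale, and 6 of the 126 background probe sets were as high or higher. Its probe set identifier carries a letter that marks several transcripts of the same gene. Ddx4, the RNA helicase used as the defining marker of germ cells, had 7, the lowest level of any named gene, shared by 11 genes in all. Dazl, an RNA-binding translational regulator of germ cells, had 12 on both of its probe sets. Mael and Piwil2, which act in the piRNA pathway that silences transposons, had 10 and 17, and Tex14, a protein of the bridges between germ cells, had 18. In this group Ddx4, Dazl and Mael were under the background median, while Piwil2, Tex14 and Ybx2 were above it.

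Meiosis genes were below the limit in 6 of 6 cases, while 62.8% of all named genes were above it. Stra8, which germ cells switch on as they enter meiosis in response to retinoic acid, had an intensity of 41. Spo11, which makes the double-strand breaks of meiotic recombination, had 24, and Dmc1, the meiotic recombinase, had probe sets at 9 and 19. The synaptonemal complex genes Sycp1, Sycp2 and Sycp3 had 9, 12 and 12, under the background median.

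Regulators of pluripotency and primordial germ cells were below the limit in 4 of 4 cases, while 62.8% of all named genes were above it. Pou5f1 and Nanog, core pluripotency factors, had intensities of 15 and 19. Lin28a, an RNA-binding protein that blocks let-7 maturation, had 11 and 13 on its probe sets, and Prdm1, a repressor that specifies primordial germ cells and also acts in lymphocytes, had 13. All 4 genes lay within the range of background probe sets, with 30 or more of the 126 as high.

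**Figure D2:**
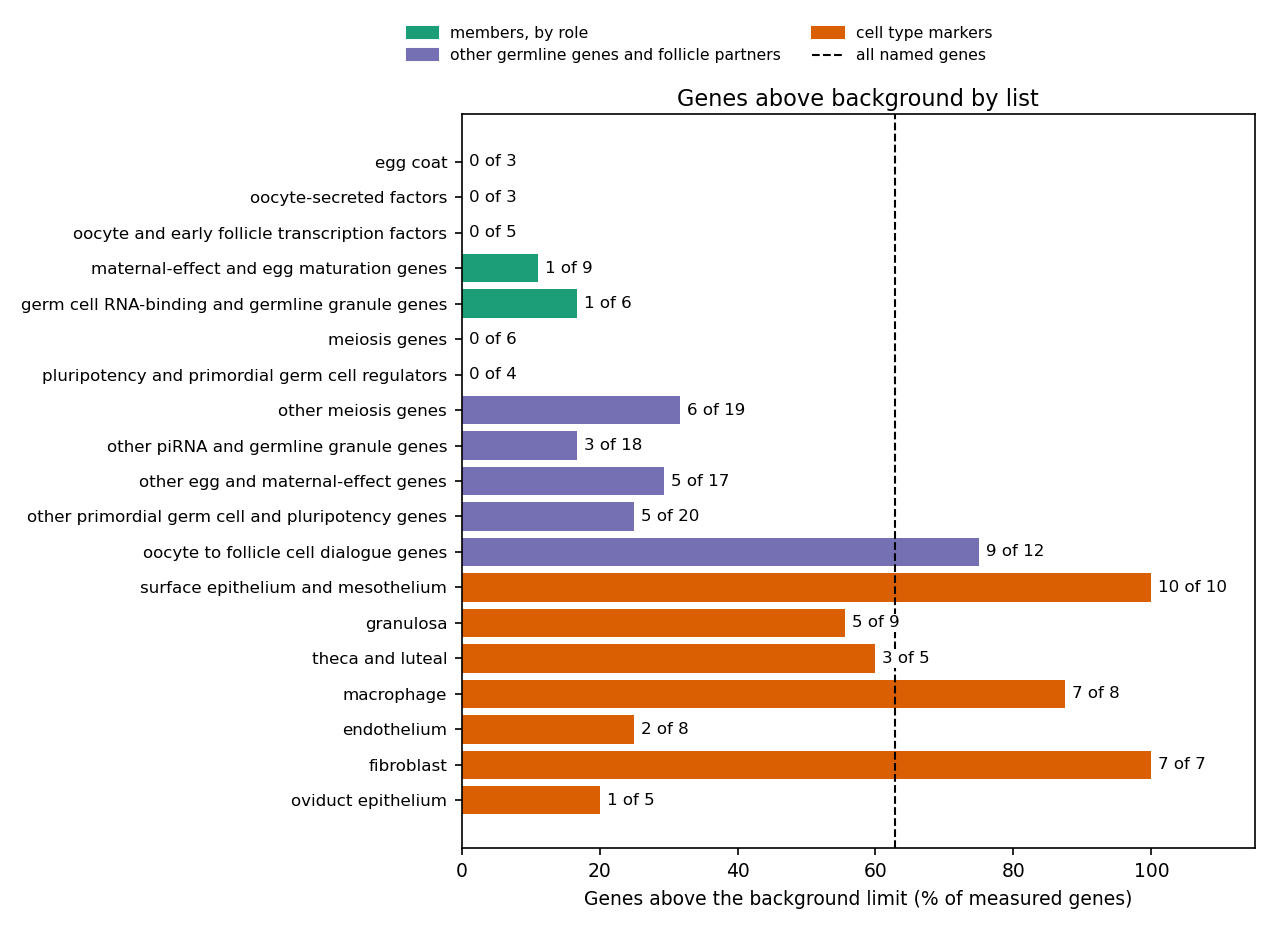
Share of measured genes above the background limit (horizontal axis, % of genes) for each group of germline members, for other germline lists and for cell type markers, with counts beside the bars. The dashed line is the 62.8% of all named genes; 5 of 7 member groups stand at 0, and the surface epithelium list at 10 of 10.

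Other germline genes, in 4 further lists, were above background in 19 of 74 measured cases, or 25.7%, against 62.8% of all named genes. The genes that passed are named below, some of them with a known role outside the germline.

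Of 19 further meiosis genes 6, or 31.6%, were above the limit, against 62.8% of all named genes. Rec8, the meiotic cohesin subunit, had an intensity of 204, while Smc1b and Stag3, also meiosis-specific cohesin subunits, had 16 and 18. Syce2, a central element protein of the synaptonemal complex, had 707 on 1 probe set, and Syce1, of the same structure and named after its value was seen, had 15. Msh5, a MutS homologue of crossover formation, had probe sets at 34 and 80, and Mlh3, a MutL homologue that also acts in mismatch repair, had 175. Psmc3ip, a partner of the strand-exchange recombinases, had 83 and 90. Trip13, an ATPase that also serves the mitotic spindle checkpoint, had probe sets at 12, 68 and 166. The Psmc3ip probe set at 83 and the Trip13 probe set at 166 carry a letter that marks probes shared between genes. Those at 90 and 68, also above the limit, carry none. Mlh3 and Trip13 have known roles outside meiosis, and whether these roles bear on their values was not tested.

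Of 18 further piRNA and granule genes 3, or 16.7%, were above the limit, against 62.8% of all named genes. Tdrd7, a Tudor protein of germ cell granules and of the lens, had 363 on 1 probe set and 14 on the other. Tdrkh, a mitochondrial Tudor protein of piRNA processing, had 120, and Dnd1, an RNA-binding protein of primordial germ cells, had 51, near the limit. Piwil1, Piwil4 and Tdrd1, core piRNA proteins, had levels of 27, 9 and 15. The PIWI genes of this list and Piwil2 were therefore all below the limit.

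Of 17 further egg and maternal-effect genes 5, or 29.4%, were above the limit, against 62.8% of all named genes. Tle6, a co-repressor family protein and a further subunit of the complex that holds Ooep, had 145 on its probe set. Zbed3, also linked to that complex and to WNT signalling through axin, had 4 probe sets at 18, 27, 232 and 522, and those above the limit carry letters that mark probes shared between genes or possible cross-hybridisation. With these 2 genes the complex had 3 of 6 named components above the limit, against 62.8% of all named genes. Ooep, Tle6 and Zbed3 were above it, and Nlrp5, Khdc3 and Padi6 below it, but Zbed3 passed on marked probe sets alone. The grouping of these 6 genes was made after the values were seen, so the count is no result about the complex. Cd9, a tetraspanin of the egg surface and of many other cells, had 1001. Zfp57, which maintains imprints, had 112, and Oas1e, of the oligoadenylate synthetase family, had 86. Nlrp14, of the same protein family as Nlrp5, had 12.

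Of 20 further primordial germ cell and pluripotency genes 5, or 25%, were above the limit, against 62.8% of all named genes. Ifitm3, an interferon-induced membrane protein that also marks early germ cells, had an intensity of 3848, and Klf4, a factor of many epithelia as well as of pluripotent cells, had 160 and 266. Esrrb, an orphan nuclear receptor, had probe sets at 15, 26 and 67, the last of them above the limit. Utf1, a chromatin protein of pluripotent cells, had probe sets at 23, 26 and 56, and Tcl1b1, a relative of Tcl1, had 63. Prdm14, a specifier of primordial germ cells, had 11, and Tfap2c, another, had at most 19. The probe sets of Esrrb and Tcl1b1 that passed carry a letter that marks possible cross-hybridisation.

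Genes of the dialogue between oocyte and follicle cells were above background in 9 of 12 cases, or 75%, against 62.8% of all named genes. By each gene's lowest probe set in place of its brightest, 3 of 12 were above it, against 39.7% of all named genes, so the order turned. Kitl, the ligand that follicle cells send to the KIT receptor of the oocyte, had 4 probe sets from 21 to 814. Gja1, the gap junction protein of granulosa and many other cells, reached 8816 on the brightest of its 6 probe sets and 38 on the lowest. Gja4, the gap junction protein that the oocyte contributes, had 14, and Kit, the receptor, named here after its value was seen, had 12 and 19. By the brightest probe set Kitl and Gja1, known from the somatic side, were above the limit, and Kit and Gja4, known from the oocyte, were below it. By the lowest probe set all 4 genes were below it. Nppc, at 41, and Bmpr1b, at 19, of the same list were below the limit too. They were named after their values were seen, and the 4 genes give no rule for either side.

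**Figure D3:**
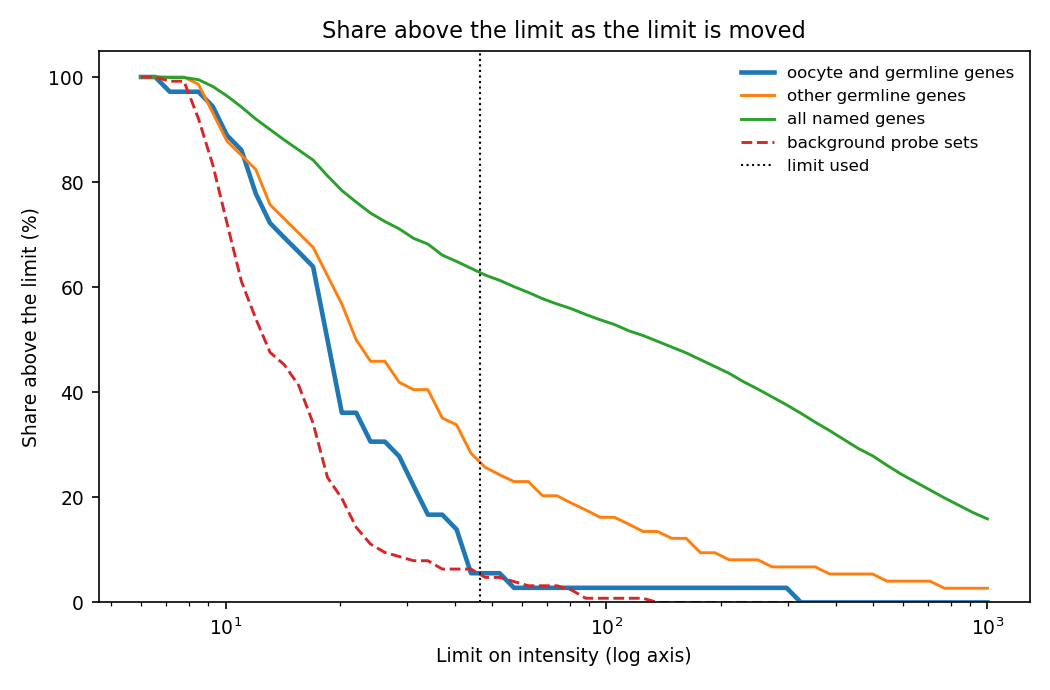
Share of genes or probe sets above a limit (vertical axis, %) as the limit on intensity is moved (horizontal log axis), for the 36 germline members, the 74 other germline genes, all 18193 named genes and the 126 background probe sets. At the limit of 46.5, marked by the dotted line, the members stand at 5.56%, other germline genes at 25.7% and all named genes at 62.8%.

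The count of members above the limit depended on where the limit was set. With the 90th percentile of background, an intensity of 25.5, 11 members passed, against 73.2% of all named genes. The 9 members added were Gdf9, Stra8, Zar1, Sohlh2, Padi6, Nobox, Khdc3, Dppa3 and Sohlh1, with intensities from 27 to 42. No zona pellucida, synaptonemal complex or pluripotency gene and neither Ddx4 nor Dazl was among them. At the nearby limit of 26.2 the members stood at 30.6% and background probe sets at 9.52%. With the 99th percentile, 84.8, Ooep alone passed, against 55.3% of all named genes. Ybx2 was also lost with genes restricted to other organs as background, where the limit was 56.8, and when probe sets with a letter mark were left out. Ooep was above the limit under all 10 alternatives run.

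Markers of other cell types were counted in the same way. Fibroblast markers were above the limit in 7 of 7 cases, from 209 to 29972, macrophage markers in 7 of 8, from 16 to 527, and theca and luteal markers in 3 of 5 measured cases, from 18 to 1229. Endothelial markers were above it in 2 of 8, from 11 to 1813, and oviduct epithelium markers in 1 of 5, from 14 to 107. Of all named genes 62.8% were above it, and the theca and luteal share, 60%, was near that. Examples were Col1a1, a collagen chain, at 8290, Csf1r, a macrophage growth factor receptor, at 527, Star, a cholesterol transporter, at 1229, Pecam1, an endothelial junction protein, at 14, and Ovgp1, an oviduct glycoprotein, at 35. Whether such cells were in the sample was not tested, nor was any part of theirs in the values of Ooep and Ybx2.

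Upstream sequence was matched by symbol for 31 of the 40 members, with 35 windows, since some genes have more than 1 start. The pattern CANNTG occurred in 30 of the 35 windows, or 85.7%, against 66.2% of the 32851 windows of all genes. TAATTG occurred in 1 of 35, the Ooep window, or 2.86%, against 7.17% of all windows, and the related TAATTA in 2 of 35, or 5.71%, against 4.84%. The ratio of observed to expected CpG dinucleotides had a median of 0.43 in member windows, against 0.37 in all windows. It exceeded 0.6 in 10 of 35 member windows, or 28.6%, against 34% of all windows. CpG-rich windows thus occurred among the members in a share near that of all genes.

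The CpG-rich members were 9 measured genes, and 1 of them, Ybx2, was above the limit. Ybx2 had ratios of 1.02 and 0.76 at its starts, and Ddx4 had 1.0 beside an intensity of 7. The 9 genes had levels from 7 to 54. The 20 measured genes with no window over 0.6 had levels from 10 to 312, with Ooep, at a ratio of 0.57, as their highest. Affinity varies from probe set to probe set, so these ranges are descriptions and give no order between genes.

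**Figure D4:**
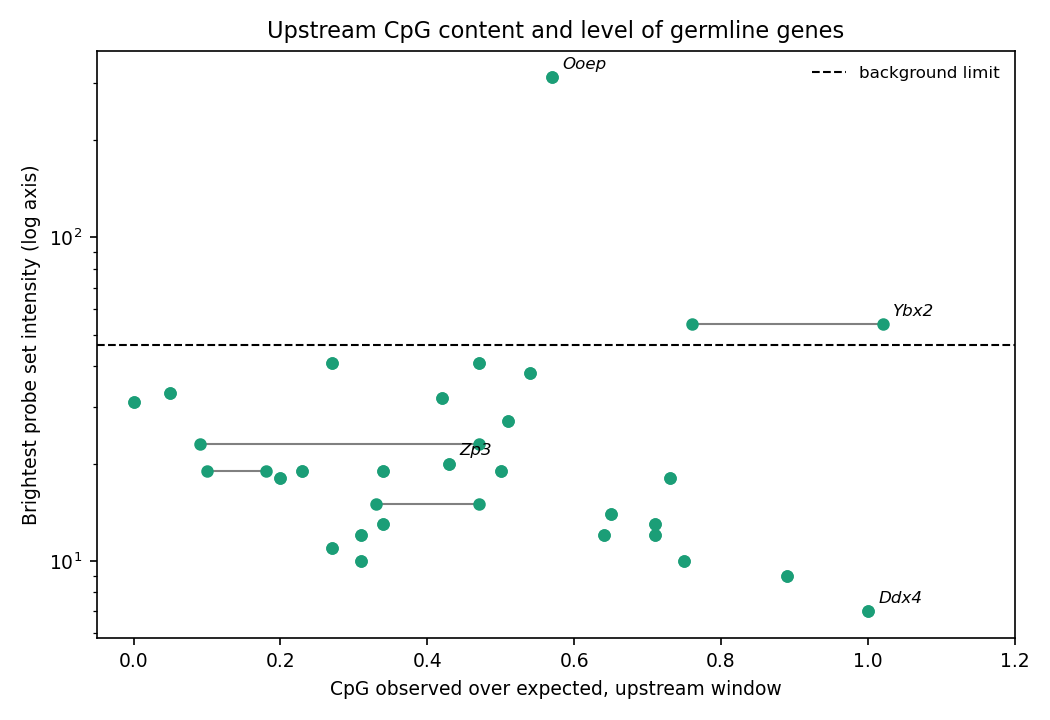
Observed over expected CpG ratio of the 250 bases upstream of each gene start (horizontal axis) and brightest probe set intensity (vertical log axis) for the 29 measured members with a window; a grey line joins the starts of 1 gene. Ybx2 and Ddx4 both have ratios near 1, with intensities of 54 and 7, and Ooep has 0.57 with 312.

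Position beside transcribed genes was also described, from the order of protein-coding genes in assembly GRCm38.p6. Of the 36 measured members 29, or 80.6%, had an adjacent gene above the limit, against 83.4% of the 15982 named genes with a measured neighbour. Mos, at 17, lies beside Rps20, a ribosomal protein gene, which had 15891. Ooep lies between Dppa5a, at 45, and Ddx43, at 14, both below the limit, so neither neighbour shared the high value of Ooep. Ybx2 lies between Eif5a, a translation factor gene, at 11718, and Slc2a4, a glucose transporter gene, at 46. Dppa3 and Nanog are adjacent to each other, at 30 and 19. These neighbours were looked up after the levels were known.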

How the data were processed

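Total RNA of 1 wild type sample was labelled with biotin and measured on an Affymetrix array. The deposited values are intensities of 45101 probe sets, all whole numbers on a linear scale from 6 to 32341. Per the submitters' processing notes, affy and RMA were used. Not given in the sources used here are their versions, which arrays were normalized together, and the step to linear whole numbers. Rounding and the background correction and shrinkage of RMA limit what low values can show: one at 7 may be off by 0.11 on the log2 scale from rounding alone. Probe sets were named through the platform annotation, and 34945 had 1 symbol. A further 932 with several symbols, 9160 with none and 64 controls were left out. Gene numbers of all 41 member probe sets matched the same symbol in GRCm38.p6.

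The level of a gene was its brightest probe set. Values were compared with the 95th percentile of 126 background probe sets (112 genes of 4 families). With 1 array there is no replicate error and no p-value, and the number of arrays limits precision. Members and lists were chosen with earlier results of these data known. Named genes were all 40 members, the first 3 measured genes of every other germline or cell type list, and in germline lists those above the limit where 6 or fewer were. For cell types beyond surface epithelium and granulosa the text gives 1 of these 3 as an example. The alternatives were limits at the 90th and 99th percentiles, 3 other backgrounds, the mean or lowest probe set, removal of marked probe sets and matching through synonyms. The counting code was checked on the same values after genes picked at random were set above or below the limit. That check covers the code alone and does not bear on the count of members. Tables were computed with pandas 2.3.3 and NumPy 2.4.6 under Python 3.11.15, and figures drawn with matplotlib 3.10.9.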

Additional observations from a re-analysis of the deposited data

How the results depend on the processing

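With 2 members, 2 member probe sets, 2 role groups with a member above the limit, 19 other germline genes and 35 of 52 cell type markers above background as reported, the counts moved mainly with the limit. With the 90th percentile they were 11 members, 11 probe sets, 5 role groups and 34 other germline genes. With olfactory and vomeronasal receptors as background, a limit of 29.3, they were 10 members, 10 probe sets, 5 role groups and 31 other germline genes. With the 99th percentile, with genes restricted to other organs as background, and without marked probe sets, there was 1 member, 1 probe set and 1 role group, and Ooep was the member in each case. The same held with the highest background probe set, 125, as the limit, an alternative chosen after seeing the data, where 10 other germline genes passed. Fewer probe sets tested account for the loss of Ybx2 without marked probe sets, and a higher limit for the others. With Y-linked genes as background, with a gene's mean or lowest probe set, and with synonyms, Ooep and Ybx2 remained the members above the limit. Cell type markers above the limit numbered 30 to 41 over the alternatives run for them, while the share of all named genes above it ran from 39.7% to 73.2%. No paired analysis was possible because 1 sample was analysed. The array has no read depth, and probe sets below the limit cannot tell absence from a low level.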

Other observations

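The genes named here were chosen after their values were seen. Genes of late sperm development, from the list of genes restricted to other organs, were mostly below the limit of 46.5. Prm2, a protamine that packs sperm chromatin, had an intensity of 24, Tnp1, a transition protein, had 11 and 13, and Tnp2 had 10. Prm1, the other protamine, had probe sets at 8, 9 and 57, of which the last was above the limit. All of these Prm1 probe sets carry a letter that marks possible cross-hybridisation. In that list 4 of 12 measured genes passed, against 62.8% of all named genes. Of 6 measured Y-linked genes 1 passed, against the same 62.8% of all named genes. Sry, the testis-determining gene, had probe sets at 10 and 77, and the one at 77 carries a letter that marks possible cross-hybridisation.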
